A study of Mus musculus with 20 samples.

Results

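The C/EBPβ sites described here had a peak in wild-type cells given doxycycline and the PARP inhibitor BYK204165 and in none of the 4 other conditions. There were 3120 of them among 23854 sites (13.1% of all sites), or 17.1% of the 18223 sites of the inhibitor list. Peaks of 5 deposited lists were merged into sites wherever they overlapped by at least 1 bp, so the sites were chosen by the peak calls themselves. Their presence with the inhibitor and absence elsewhere is the rule, not a finding. They are called inhibitor-only sites below.

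Binding was mapped by ChIP-seq, in which DNA bound to a protein is pulled down with an antibody and sequenced. The cells were 3T3-L1, mouse preadipocytes that can turn into fat cells in culture. Every line held a transgene, switched on by doxycycline, for LAP (the long, activating isoform of C/EBPβ) with an HA tag, either wild type (WT) or with its PARylation sites mutated (Mut). Cells held under contact inhibition received vehicle (WT −Dox and Mut −Dox) or 1 µg/ml doxycycline for 8 h (WT +Dox and Mut +Dox), and 1 set of WT cells also received BYK204165 starting 1 h before doxycycline (WT +Dox +BYK). Each condition had 2 ChIP and 2 input libraries, but the data used here are 1 peak list per condition. For the inhibitor's dose, and for whether each line was 1 clone or a pool of cells, nothing was given in the sources used here. Cells given the inhibitor without doxycycline were not analysed here. The antibody was against C/EBPβ and not the tag, so induced and endogenous protein were not told apart. A peak list carries no expression values, so the cell type stands as labelled. No difference between lists has a replicate check, no test of one was made, and depth is unknown.

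As a bZIP protein, C/EBPβ grips palindromic or near-palindromic DNA as a dimer. It is induced early when preadipocytes start to differentiate and helps to switch on Pparg and Cebpa, whose products then drive the fat cell program. PARP-1 uses NAD to attach chains of ADP-ribose to proteins, and such chains can change how a protein binds DNA.

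DNA can be shown for the inhibitor-only sites that overlapped promoters. Promoter windows from RefSeq (build GRCm38.p6, 250 bases before to 50 after each start) numbered 32851, and inhibitor-only sites overlapped 260 of them (0.791% of windows). The windows belonged to 234 of 27025 genes (0.866% of genes) and were overlapped by 216 sites. That is 7.15% (95% Wilson interval 6.28 to 8.12) of the inhibitor-only sites, against 7.58% (7.17 to 8.03) of other inhibitor sites, 5.46% (4.67 to 6.37) of sites of Mut +Dox alone, 4.08% (3.35 to 4.96) of sites of the Mut +Dox and inhibitor lists only and 11.9% (9.35 to 15.0) of sites of WT +Dox alone, all off the chromosome without windows. The 250 upstream bases of 6 such windows follow, 5′ to 3′ on the gene's strand. Capitals mark letters that match a C/EBP pattern (TTGCNNAA, TTGCATCA or ATTGCAT, either strand) or the AP-1 pattern (TGANTCA, either strand). Mdp1 and Tprn are shown for their high scores, Gadd45g and Klf6 because they are among the listed genes described below, and Cnpy2 and Vav3 for having 3 matches each. These 6 were picked after their values were seen.
Mdp1: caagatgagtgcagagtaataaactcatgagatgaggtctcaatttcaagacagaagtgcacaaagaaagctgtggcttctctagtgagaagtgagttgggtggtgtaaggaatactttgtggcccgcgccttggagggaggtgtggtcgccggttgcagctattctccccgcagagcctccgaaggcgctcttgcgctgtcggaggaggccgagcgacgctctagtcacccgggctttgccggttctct
Tprn: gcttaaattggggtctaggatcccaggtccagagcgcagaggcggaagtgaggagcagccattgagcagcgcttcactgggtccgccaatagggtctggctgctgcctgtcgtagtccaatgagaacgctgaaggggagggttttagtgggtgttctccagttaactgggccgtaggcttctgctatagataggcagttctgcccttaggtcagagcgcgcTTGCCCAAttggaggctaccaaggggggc
Gadd45g: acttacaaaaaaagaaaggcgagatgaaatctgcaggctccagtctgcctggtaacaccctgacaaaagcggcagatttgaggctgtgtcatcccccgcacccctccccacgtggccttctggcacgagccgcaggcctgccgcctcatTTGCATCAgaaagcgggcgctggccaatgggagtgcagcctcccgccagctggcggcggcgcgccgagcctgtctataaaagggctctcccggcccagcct
Klf6: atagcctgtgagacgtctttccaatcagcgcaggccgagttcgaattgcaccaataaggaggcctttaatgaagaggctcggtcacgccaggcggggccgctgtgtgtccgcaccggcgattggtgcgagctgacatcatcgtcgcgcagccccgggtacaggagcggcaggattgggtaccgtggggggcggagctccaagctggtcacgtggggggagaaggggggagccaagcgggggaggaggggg
Cnpy2: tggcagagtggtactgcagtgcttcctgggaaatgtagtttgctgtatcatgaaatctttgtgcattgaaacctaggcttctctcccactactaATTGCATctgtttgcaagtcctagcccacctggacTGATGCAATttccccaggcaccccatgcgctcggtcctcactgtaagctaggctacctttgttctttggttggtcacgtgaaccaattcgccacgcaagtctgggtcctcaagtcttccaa
Vav3: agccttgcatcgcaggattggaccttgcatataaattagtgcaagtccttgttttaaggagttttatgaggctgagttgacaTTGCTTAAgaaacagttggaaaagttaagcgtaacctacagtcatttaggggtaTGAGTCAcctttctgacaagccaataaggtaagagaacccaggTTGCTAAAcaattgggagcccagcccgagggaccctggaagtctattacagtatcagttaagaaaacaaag

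The Mdp1 bases lie at chr14:55660452-55660701 on the minus strand, inside the site at 55659984 to 55660869, whose authors' score of 137.08 was the highest among sites at promoter windows. Its upstream bases held none of the 4 patterns. The Tprn bases (chr2:25262348-25262597, plus strand, score 127.03) held 1 match to TTGCNNAA. Gadd45g, of the growth arrest and DNA damage family, had its upstream bases (chr13:51846425-51846674, plus strand) wholly inside a site scored 96.76, with 1 match to TTGCATCA, the form of composite C/EBP and ATF elements. No other list had a site within 50 kb of Gadd45g. Klf6 encodes a Krüppel-like transcription factor, and its upstream bases (chr13:5861239-5861488, plus strand, score 61.25) held none of the 4 patterns. The Cnpy2 bases (chr10:128322209-128322458, plus strand, score 86.7) held 3 matches, 2 to ATTGCAT and 1 to TTGCATCA, which shares letters with 1 of the others. Vav3 encodes a guanine nucleotide exchange factor, and its upstream bases (chr3:109573757-109574006, plus strand, score 75.21) held 2 matches to TTGCNNAA and 1 to TGANTCA. A match is a description of letters and not a mapped contact.

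Over all 260 windows at inhibitor-only sites, 51 (19.6%, 95% Wilson interval 15.2 to 24.9) held at least 1 of the 3 C/EBP patterns. Among all windows of the table the share was 12.97% (12.6 to 13.3), and among the 1414 windows at other sites of the inhibitor list it was 26.3% (24.1 to 28.7). It was 21.9% (16.6 to 28.4) of 187 windows at sites of Mut +Dox alone and 23.2% (16.7 to 31.3) of 125 windows at sites of the Mut +Dox and inhibitor lists only. At sites of WT +Dox alone it was lower, at 16.5% (10.1 to 25.8) of 85 windows. The full palindrome TTGCGCAA was in 0 of the 260 windows, which allows a share of up to 1.15%, and in 36 of the 1414 windows (2.55%) at other inhibitor sites. Windows at sites of Mut +Dox alone (0 of 187) and of the Mut +Dox and inhibitor lists only (0 of 125) also lacked it. At sites of WT +Dox alone it was in 1 of 85. In all windows its share was 0.183%. TTGCATCA was in 5 of 260 windows (1.92%, 0.824 to 4.42), against 0.895% of all windows and 2.83% (2.08 to 3.83) at other inhibitor sites. Its share was 1.60% at sites of the Mut +Dox and inhibitor lists only and 0.535% at sites of Mut +Dox alone. At sites of WT +Dox alone it was in 0 of 85.

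Other letters were near the level of all windows or of the other inhibitor sites. TGANTCA was in 15 windows (5.77%, 3.53 to 9.30), with 7.81% in all windows. The cyclic AMP response element TGACGTCA was in 4 windows (1.54%), with 1.79% in all, and the TEAD core GGAATG in 43 (16.5%, 12.5 to 21.5), with 14.7% in all. The nuclear factor I palindrome was in 0 windows and in 0.0365% of all. GC boxes (GGGCGG) were in 127 windows (48.8%, 42.8 to 54.9), with 50.8% at other inhibitor sites and 35.7% in all. A CpG ratio (observed over expected) of at least 0.6, typical of CpG islands, was reached by 57.7% (51.6 to 63.5) of the windows, 59.8% (57.2 to 62.3) of those at other inhibitor sites and 35.8% of all. Patterns were searched on both strands, and windows of 1 gene can share bases.

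**Figure D1:**
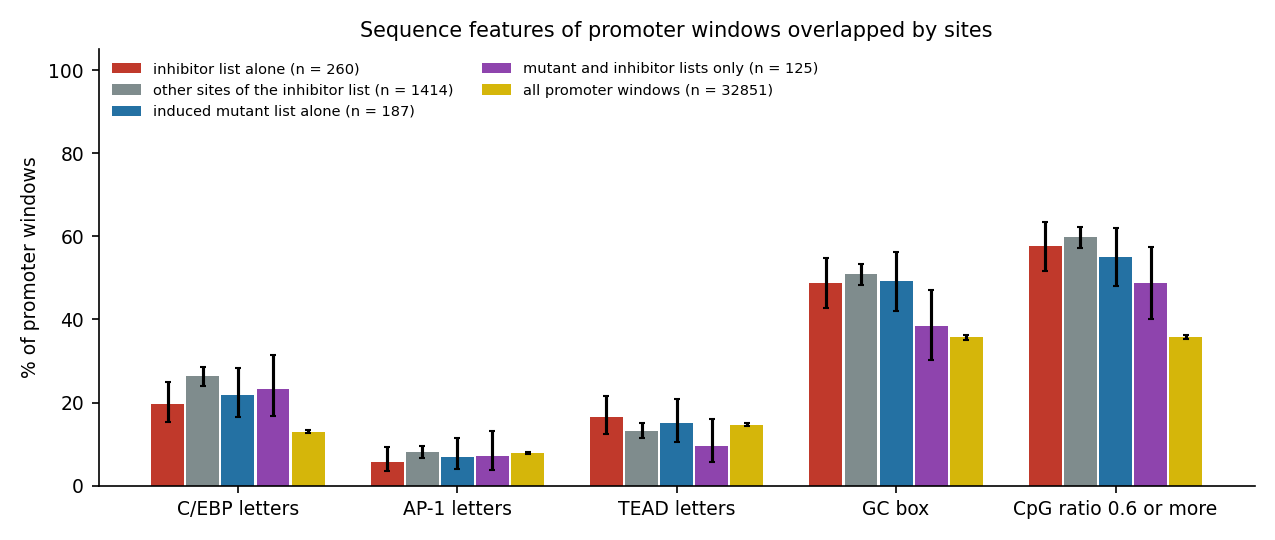
Percent of promoter windows with C/EBP letters (any of 3 patterns), AP-1 letters (TGANTCA), TEAD letters (GGAATG), a GC box (GGGCGG) or a CpG ratio of at least 0.6, for windows overlapped by 4 sets of sites and for all 32851 windows; bars give the share and lines the 95% Wilson interval. C/EBP letters were in 19.6% of the windows at inhibitor-only sites, between the 12.97% of all windows and the 26.3% at other inhibitor sites.

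Inhibitor-only sites were weak peaks of their list. Their authors' scores ran from 50.02 to 214.16 with a median of 62.6, quartiles of 55.2 and 75.6 and a 90th percentile of 92.2. The whole inhibitor list ran from 50.01 to 2142.99 with a median of 106, so the median inhibitor-only site stood at percentile 17.8 of the list. Of the 3120 sites, 141 (4.52%) scored above the list's median, 198 scored 100 or more and 14 scored 150 or more. The scale of the score is not named in the files, so it was used only to rank peaks within a list. These scores come from the list that chose the sites and are given as a description.

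The share of inhibitor sites found in no other list fell steadily along the score. It was 52.0% (49.4 to 54.5) of 1460 sites scored 50 to 55, 35.2% (33.5 to 36.9) of 2885 scored 60 to 75 and 5.598% (4.86 to 6.44) of 3287 scored 100 to 150. Among the 3380 sites scored 250 or more there were 0, which allows a share of up to 0.0888%. Sites shared with 1, 2, 3 and 4 other lists had median inhibitor scores of 74.2, 101, 143 and 262. Sites of Mut +Dox alone stood at a like place in their own list, with a median at percentile 17.9 and 5.46% above the list's median. The 531 sites of WT +Dox alone stood at percentile 12.7 of theirs.

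**Figure D2:**
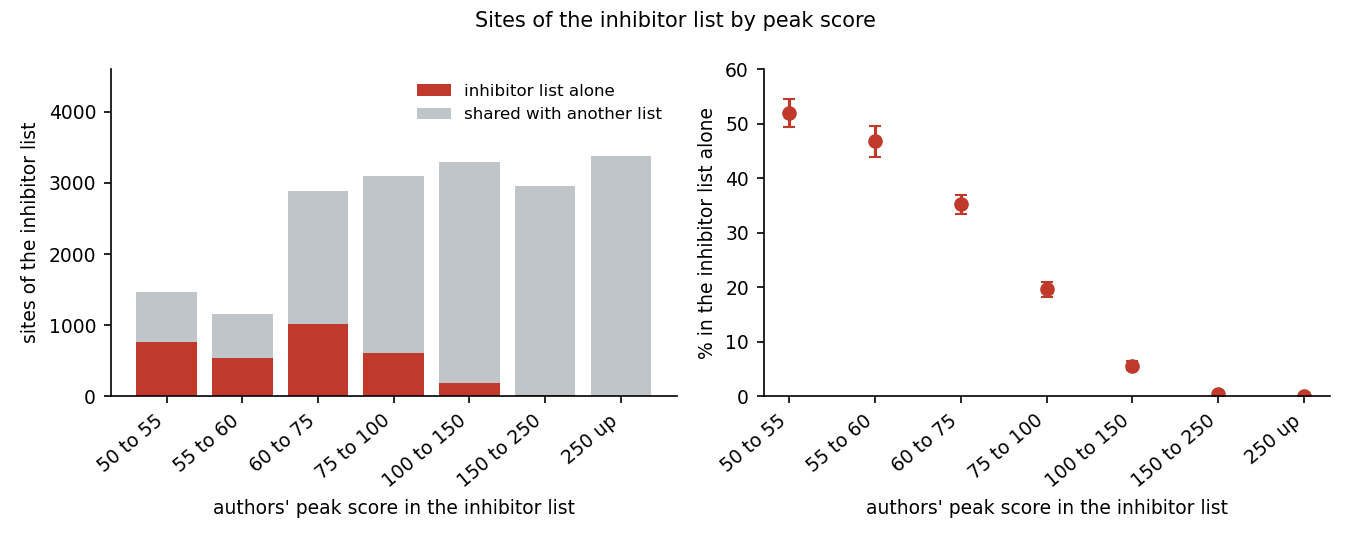
Left, number of sites of the inhibitor list in each range of the authors' peak score, split into sites found in that list alone (red) and sites shared with another list (grey); right, percent found in the inhibitor list alone with 95% Wilson intervals. The share fell from 52.0% at scores of 50 to 55 to 0 at scores of 250 or more.

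The sites were also narrow beside the shared peaks of their list. Their median width was 761 bp (quartiles 694 and 832, range 302 to 4858). Peaks of the inhibitor list at sites shared with 1, 2, 3 and 4 other lists had median widths of 786, 819, 844 and 911 bp. Each inhibitor-only site held exactly 1 peak. Sites of WT +Dox alone had a like median width of 767 bp, and those of Mut +Dox alone were wider, at 875 bp. Peaks of the whole WT −Dox list were narrower, with a median of 729 bp.

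Near misses of the overlap rule were few. At 25 of the 3120 sites a site of another list lay within 100 bp, and 2 inhibitor sites were kept out by an overlap of under 100 bp. Just inside the rule, a site in Alk (chromosome 17, 72158839 to 72159651, score 70.67) lay 9 bp from a site of the WT +Dox, Mut +Dox and inhibitor lists, and a site near Acvr1, a bone morphogenetic protein receptor gene (chromosome 2, 58433186 to 58433824, score 55.82), lay 10 bp from a site of the WT −Dox, WT +Dox and inhibitor lists. Just outside the rule, a site in Stard13 (chromosome 5, 151111577 to 151113335, score 102.49) was shared through 50 bp and a site in Ttc28 (chromosome 5, 110897963 to 110899586, score 53.05) through 53 bp.

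Most inhibitor-only sites stood apart from other binding, yet within reach of it. A site of any other list lay within 1 kb of 6.83% (5.99 to 7.77), within 5 kb of 22.2% (20.8 to 23.7) and within 50 kb of 75.4% (73.8 to 76.8) of them. By list, the median distance was 21320 bp to a Mut +Dox site, 30386.5 bp to a WT +Dox site, 35355.5 bp to a WT −Dox site and 58787 bp to a Mut −Dox site, the reverse order of the lengths of the lists (17772, 12283, 10862 and 6866 sites). To use the same lists for every set, the nearest other site of WT −Dox, Mut −Dox or WT +Dox was also taken. It lay within 5 kb of 17.9% (16.5 to 19.2) of inhibitor-only sites, 21.2% (19.8 to 22.8) of sites of Mut +Dox alone, 20.1% (18.5 to 21.7) of sites of both only and 20.7% (20.1 to 21.4) of the other inhibitor sites. Sites of WT +Dox alone were at the level of the inhibitor-only sites, with 17.9% (14.9 to 21.4).

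Relative to genes, inhibitor-only sites lay closer to transcription starts than the sites of Mut +Dox alone, near the level of the other inhibitor sites and less often within 1 kb than the sites of WT +Dox alone. Midpoints within 1 kb of a RefSeq transcription start made up 10.1% (9.10 to 11.2) of the 3023 inhibitor-only sites off chromosome 18, 168 of them upstream of the nearest start and 138 downstream. The share was 6.91% (6.02 to 7.92) of sites of Mut +Dox alone, 5.80% (4.92 to 6.82) of sites of the Mut +Dox and inhibitor lists only and 9.02% (8.56 to 9.49) of other inhibitor sites. It was 15.6% (12.7 to 18.95) of 514 sites of WT +Dox alone. Sites over 50 kb from any start with a promoter window were 28.9% (27.4 to 30.6), 39.0% (37.2 to 40.8), 36.6% (34.7 to 38.6) and 32.0% (31.3 to 32.8) of the first 4 sets, in that order, and 26.3% (22.6 to 30.2) of sites of WT +Dox alone. The median distance to a start was 22503 bp for inhibitor-only sites, 24458 bp for other inhibitor sites, 32964 bp for sites of Mut +Dox alone, 30443.5 bp for sites of both only and 19793 bp for sites of WT +Dox alone. These intervals cover counting error only, and neighbouring sites are not independent. Starts were those of the promoter windows, and some genes have no window: of the 430 listed genes described below, 310 had a window. A site 0.359 kb from Prdx6 on chromosome 1 counted as 92.3 kb from a start.

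The share at starts was no lower at high scores, and its intervals overlapped from range to range. It was 9.13% (7.66 to 10.8) of inhibitor-only sites scored 50 to 60, 9.45% (7.78 to 11.4) of those scored 60 to 75, 12.7% (10.2 to 15.6) of those scored 75 to 100 and 12.3% (8.41 to 17.7) of those scored 100 or more. In the same ranges it was 6.38% (4.58 to 8.83), 4.63% (3.28 to 6.49), 5.15% (3.69 to 7.14) and 7.60% (5.59 to 10.3) of sites shared with Mut +Dox only. Of the other inhibitor sites it was 8.04%, 8.00%, 8.45% and 9.50%. The gene annotation, which covers 21883 protein-coding genes, gave a like order: 9.78% (8.78 to 10.9) of inhibitor-only sites, 6.34% (5.50 to 7.30) of sites of Mut +Dox alone and 5.29% (4.46 to 6.25) of sites of both only lay within 1 kb of either end of a gene, with 8.55% (8.12 to 9.01) of other inhibitor sites and 13.9% (11.2 to 17.1) of sites of WT +Dox alone. Inside a protein-coding gene were 51.0% (49.2 to 52.7) of inhibitor-only sites, and 48.01% (46.2 to 49.8) of sites of Mut +Dox alone.

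**Figure D3:**
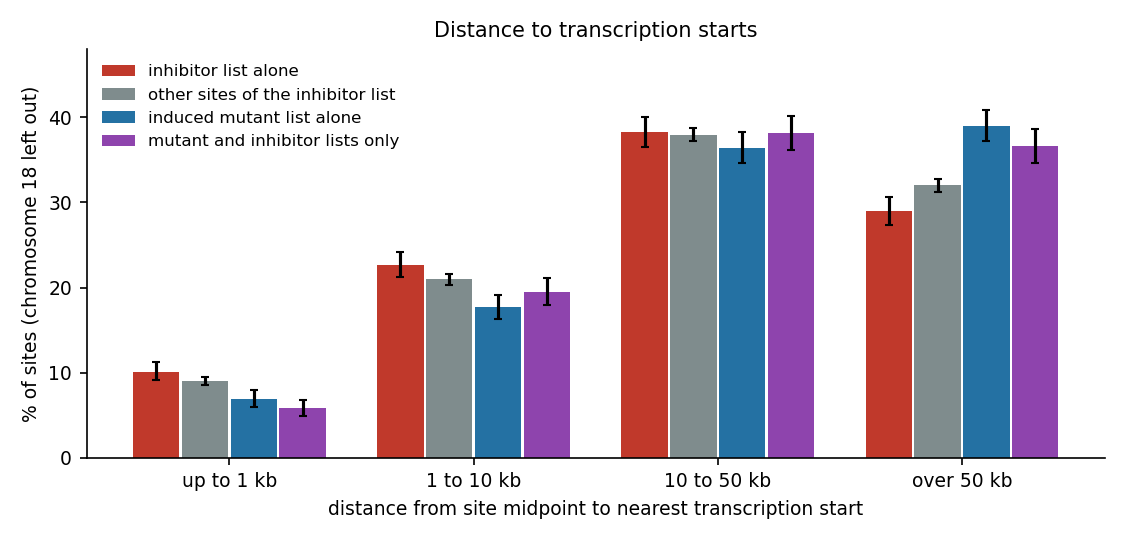
Percent of sites by distance from the site's midpoint to the nearest transcription start with a promoter window, for 4 sets of sites; bars give the share and lines the 95% Wilson interval. Within 1 kb were 10.1% of inhibitor-only sites and 6.91% of sites of the induced mutant alone, and over 50 kb were 28.9% and 39.0%.

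Inhibitor-only sites were spread over all the chromosomes of the list. Their share of a chromosome's inhibitor sites ranged from 14.4% (12.3 to 16.8) on chromosome 10 to 20.1% (17.3 to 23.1) on chromosome 17. The X chromosome had 51 of its 310 inhibitor sites among them (16.5%). Another inhibitor-only site lay within 10 kb of 7.47% of the sites and within 100 kb of 41.3%.

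Of the 20 highest-scoring inhibitor-only sites, 8 lay inside a protein-coding gene, 4 within 50 kb of one and 8 farther away. At 4 of them no other list had a site within 50 kb. The highest score, 214.16, belonged to a site 172 kb from Terf2ip (chromosome 8, 112191724 to 112192516), with no other site of any list within 50 kb. A site in Kcnq1, a potassium channel gene (chromosome 7, 143139268 to 143139932, score 152.29), and a site 102 kb from Spaca1 (chromosome 4, 34151620 to 34152543, score 147.22) were alone in the same way. A site 0.359 kb from Prdx6, which encodes the antioxidant enzyme peroxiredoxin 6 (chromosome 1, 161251147 to 161251990, score 142.72), had 1 more site of the inhibitor list nearby and 0 of the others. The next highest score, 186.68, belonged to a 3691 bp site near Gm14410 (chromosome 2, 177242687 to 177246377). There 3 of the 4 protein-coding genes within 500 kb are Gm models that may be similar copies, so its place is uncertain.

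Other sites among the 20 had binding of the other lists around them. A site in Tigar (chromosome 6, 127086473 to 127087382, score 161.66), 38.2 kb from the cyclin D2 gene Ccnd2, had 4 or 5 sites of each list within 50 kb. A site in St7 (chromosome 6, 17785056 to 17785825, score 141.25) had 10 inhibitor sites, 8 of Mut +Dox and 7 of WT +Dox within 50 kb, with 2 of WT −Dox and 0 of Mut −Dox. A site in Ppargc1b, which encodes a coactivator of nuclear receptors (chromosome 18, 61360458 to 61361704, score 147.44), had 1 site nearby in each of the 4 other lists. Sites in Pigu, Ppp1cc and Aopep and sites whose nearest gene was Plpp3, Lmo4, Slc25a26, Scarf2, Slc8a1, Cdca7, Bmp2k or Efnb2 were also among the 20, with scores of 145.48 to 174.88.

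Within 50 kb of a gene's span, 4215 of 21883 protein-coding genes had at least 1 inhibitor-only site (19.3% of genes). Of the 12060 genes with any inhibitor site in reach, the share was 35.0%. Most of the 4215 had 1 such site (3352 genes), while 30 genes had 4, 13 had 5 and 1 had 6. Below, site numbers within 50 kb of a gene are given for WT −Dox, Mut −Dox, WT +Dox, Mut +Dox and WT +Dox +BYK in that order. Where groups of genes lie close together they share sites.

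Long genes and a chemokine cluster had the most. Dgki, a diacylglycerol kinase gene (chromosome 6, 36837381 to 37300955), had 6 inhibitor-only sites, all inside it and scored 50.28 to 71.72, and 11, 7, 8, 13 and 18 sites in the lists. With 5 inhibitor-only sites each, Dlc1 had 9, 6, 15, 22 and 23 sites, Cdk14 11, 8, 14, 21 and 22, and Glis3, a zinc finger factor gene, 12, 8, 12, 18 and 22. Ltbp1, which encodes a binding protein of latent TGF-β, had 8, 5, 11, 15 and 15, and Kalrn 7, 4, 4, 8 and 12. Klhl2, a shorter gene (chromosome 8, 64739673 to 64850169), had 2, 1, 3, 3 and 8 sites, so 5 of its 8 inhibitor sites were in no other list. C1qtnf7, which encodes a secreted relative of adiponectin, had 4, 2, 7, 6 and 11. Tenm4, Pakap and Dlgap2 had 5 inhibitor-only sites (3 near Pakap with peaks widened by 500 bp) and Mrtfb had 4.

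Ccl2, Ccl7 and Ccl11, chemokine genes that attract monocytes and eosinophils, shared 1 of the 2 densest runs, with 5 inhibitor-only sites in 53636 bp of chromosome 11. They lay at 82019256 to 82020074 (score 68.48), 82031957 to 82032701 (65.46), 82032729 to 82033531 (64.81), 82066882 to 82067638 (50.90) and 82072041 to 82072891 (75.06). The 2 sites nearest to Ccl2 were 3.25 and 2.45 kb from its span and lay almost side by side, 1 ending at 82032701 and the other starting at 82032729. With peaks widened by 500 bp, 4 inhibitor-only sites were left near Ccl2, Ccl7 and Ccl11. Within the same stretch the inhibitor list had 7 sites, Mut +Dox 3 and each other list 2. The sites shared by all 5 lists in that region scored 874.56 and 238.82 in the inhibitor list, well above the 5.

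**Figure D4:**
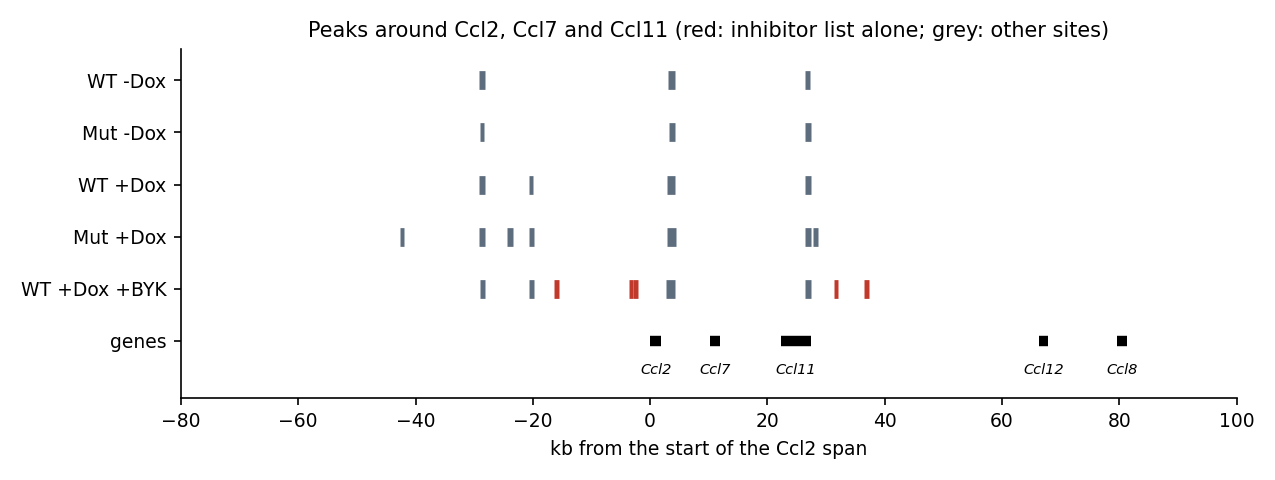
Peaks of the 5 lists (rows) by distance in kb from the start of the Ccl2 span, with protein-coding genes in the bottom row; red marks sites of the inhibitor list alone and grey all other sites. Of the 5 red peaks, 3 lie to the left of Ccl2 and 2 beyond the last site that all lists share, at 31.3 and 36.5 kb.

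Genes of the fat cell program, signalling, stress and other cell types were grouped in 17 lists with 430 matched genes, of which 126 had an inhibitor-only site. Over all protein-coding genes the share was 19.3%, and 35.0% over those with any inhibitor site. Among 24 adipogenic transcription factors, 8 had 1 (33.3%, 17.97 to 53.3). Pparg had 0 among its 11, 9, 15, 19 and 17 sites, so every inhibitor site there had a counterpart in another list. Cebpa, the factor that maintains the fat cell state, had 1, 0, 1, 2 and 2, and its inhibitor-only site (chromosome 7, 35121175 to 35121789) lay inside the gene with a score of 54.23. Cebpb itself had 0, 0, 1, 0 and 2, with an inhibitor-only site 23.3 kb away scored 71.62, and Cebpd had 0 in each list. Ebf1 and Ebf2, early B cell factors that act in fat cell precursors, had 2 inhibitor-only sites each among 12 and 5 inhibitor sites. Ppargc1b had 2, and its lists held 1, 1, 1, 1 and 3 sites.

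Of 28 adipocyte lipid and secreted factor genes, 10 had an inhibitor-only site (35.7%, 20.7 to 54.2), with 19.3% over all genes. Of the 24 with any inhibitor site the share was 41.7% (24.5 to 61.2), with 35.0% over all such genes. Near them, 14 of the 63 inhibitor sites were of this kind (22.2%, 13.7 to 33.9), with 17.1% over all inhibitor sites. Lpl, which encodes the lipase that releases fatty acids from lipoproteins, had 5, 5, 4, 5 and 9 sites. Of its 3 inhibitor-only sites, that at 68880090 to 68881097 on chromosome 8 (score 83.57) covered an end of the gene, and that at 68886373 to 68887302 (score 111.16) lay inside it. With peaks widened by 500 bp, 1 of the 3 was left. Adipoq, the adiponectin gene, had 3, 0, 1, 4 and 5 sites. Its inhibitor-only sites lay 1.92 kb (score 51.10) and 37.1 kb (score 78.67) from the gene, and 1 was left with that widening. Acaca, which encodes acetyl-CoA carboxylase, had 2 such sites inside it, scored 60.43 and 90.60. Plin4, a lipid droplet gene, had 1 at 34.0 kb scored 97.32. Fabp4, the fatty acid carrier gene, had 0.

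Matrix and inflammatory genes had the highest shares of genes with an inhibitor-only site. Of 32 fibroblast and matrix genes, 16 had 1 (50.0%, 33.6 to 66.4), and of the 30 with any inhibitor site 53.3% (36.1 to 69.8). Over all protein-coding genes these shares were 19.3% and 35.0%. By sites, 22 of their 146 inhibitor sites (15.1%, 10.2 to 21.8) were inhibitor-only, where the share over all inhibitor sites was 17.1%. Col6a3, a collagen VI chain gene, had 3 within it, scored 72.56 to 90.65, and 4, 4, 5, 6 and 6 sites. Sparc, which encodes a collagen-binding glycoprotein, had 1, 1, 0, 0 and 4, so 3 of its 4 inhibitor sites were in no other list. Col1a2, a collagen I chain gene, had 3 and Thbs1, the thrombospondin gene, 2.

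Of 30 acute phase and inflammatory genes, 13 had an inhibitor-only site (43.3%, 27.4 to 60.8), with 19.3% over all genes. Near them, 20 of 119 inhibitor sites were of this kind (16.8%, 11.2 to 24.5), with 17.1% over all inhibitor sites. Besides the chemokine genes, Vcam1, which encodes an adhesion molecule, had 3, 1, 3, 4 and 7 sites, 3 of them inhibitor-only. Of 20 genes for the glucocorticoid receptor and its targets, 6 had 1 (30.0%, 14.5 to 51.9), where the share over all genes was 19.3%. Dusp1, a MAP kinase phosphatase gene, had 2, 0, 1, 4 and 7 sites, and its 3 inhibitor-only sites scored 121.74 (6.44 kb away), 53.81 (1.36 kb) and 52.07 (16.8 kb). Widening all peaks by 500 bp left 1 of these. Errfi1, which encodes an inhibitor of EGF receptor signalling, had 2, 1 of them 0.087 kb from the gene with a score of 50.60.

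**Figure D5:**
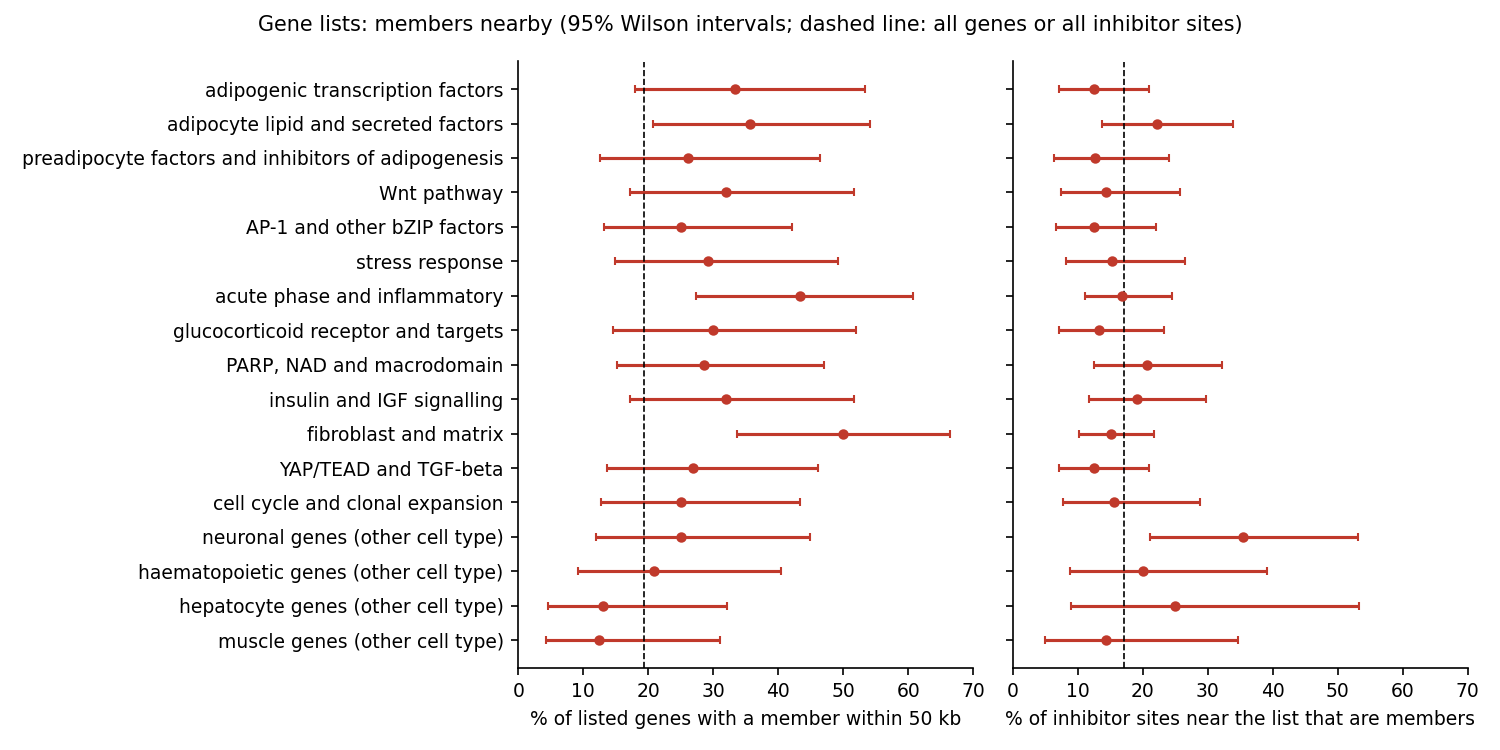
Left, percent of listed genes with an inhibitor-only site within 50 kb; right, percent of the inhibitor sites near each list that were found in no other list; points with 95% Wilson intervals, and dashed lines at 19.3% of all protein-coding genes and 17.1% of all inhibitor sites. On the right the intervals of 16 of the 17 lists hold the dashed line, the exception being neuronal genes.

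Of 25 insulin and IGF signalling genes, 8 had an inhibitor-only site (32.0%, 17.2 to 51.6), where the share over all genes was 19.3%. By sites, 14 of their 73 inhibitor sites (19.2%) were inhibitor-only, with 17.1% over all inhibitor sites. Insr, the insulin receptor gene, had 1, 1, 1, 1 and 3 sites, and its 3 inhibitor-only sites, all inside it, scored 50.20, 55.29 and 123.24. Rptor, which encodes the raptor subunit of mTORC1, had 4 such sites among its 10 inhibitor sites. Irs2, an insulin receptor substrate gene, had 0, 0, 0, 2 and 2 sites, with both of the last inhibitor-only. Of 26 YAP/TEAD and TGF-β genes 7 had 1 (26.9%, 13.7 to 46.1), and 11 of their 88 inhibitor sites (12.5%) were inhibitor-only. Smad7, which encodes an inhibitor of TGF-β signalling, had 2, 2, 2, 2 and 6 sites and 3 inhibitor-only. Of 25 Wnt pathway genes 8 had 1 (32.0%, 17.2 to 51.6), each with 1 site, and these were 8 of 56 inhibitor sites (14.3%). Lrp5, a Wnt coreceptor gene, was 8.55 kb from a site scored 126.35 that overlapped the promoter window of Ppp6r3. Wnt5b was 46.3 kb from a site scored 98.32. Neither gene was the nearest to its site.

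Of 24 stress response genes 7 had an inhibitor-only site (29.2%, 14.9 to 49.2), where the share over all genes was 19.3%. Among them were Gadd45g and Gadd45a, the latter with 8, 5, 5, 9 and 9 sites and, with peaks widened by 500 bp, no inhibitor-only site. Of 32 AP-1 and other bZIP genes 8 had 1, with 2 each near Nfe2l2, the gene of the oxidative stress factor NRF2, and Fosl2, an AP-1 subunit gene. Of 28 PARP, NAD and macrodomain genes 8 had 1 (28.6%, 15.3 to 47.1). Macrod2, a very long gene for an ADP-ribose hydrolase, had 4 among its 16 inhibitor sites, all inside it and scored 50.40 to 67.26. Macrod1, a related gene, had 0, 0, 1, 0 and 3, Nmnat1, which encodes an enzyme of NAD synthesis, 0, 0, 1, 2 and 2, and Parp1 had 2, 0, 1, 1 and 2 with no inhibitor-only site. Of 23 preadipocyte genes 6 had 1 (26.1%, 12.5 to 46.5), with Pdgfrb, a growth factor receptor gene, at 2, 1, 3, 3 and 5 sites. Of 28 cell cycle genes 7 had 1.

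Lists of other cell types served as a reference. Inhibitor-only sites were near 6 of 24 neuronal, 5 of 24 haematopoietic, 3 of 23 hepatocyte and 3 of 24 muscle genes. Neuronal genes had 11 such sites among 31 inhibitor sites (35.5%, 21.1 to 53.1), with 17.1% over all inhibitor sites. Of these 11, the 2 near Grin1 overlapped promoter windows of other genes, Tprn (shown above) and Anapc2. Syt1, a synaptic vesicle gene, had 2, 1, 3, 4 and 7 sites. Over all 17 lists, the interval for genes with an inhibitor-only site held the 19.3% of all genes in 14, the exceptions being the lipid and secreted factor, inflammatory and matrix lists. Among genes with an inhibitor site it held 35.0% in 16, the matrix list being the exception. The lists differ in gene length and density of sites, whose part in these shares was not tested.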

How the data were processed

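ChIP and input DNA were sequenced in pairs of libraries for each of 5 conditions (20 libraries, 10 groups). Bowtie, bedtools and the mm10 build appear in the submitters' processing notes. MACS stands in the peak names of the deposited files. How it was run, and whether replicates were pooled, is not given in the sources used here. The deposited lists give each peak's position and the authors' score, without a header that names its scale.

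Peaks were merged with pandas 2.3.3 and numpy 2.4.6 under Python 3.11.15, with scipy 1.17.1 for intervals and matplotlib 3.10.9 for plots, and the merging, distance and motif steps were tested on simulated data. Coordinates are 1-based. Gene spans and promoter windows came from RefSeq (GRCm38.p6, the coordinates of mm10), and the windows used here hold none of chromosome 18, whose sites were left out of shares by distance to a start. Windows were also missing for some genes elsewhere, so a distance to a start is to the nearest start with a window. Of the listed genes, 430 matched and 3 did not. In 1677 of 1677 overlapping window pairs on opposite strands the sequences were reverse complements. No genome sequence was used, so exons, introns and motifs outside promoter windows were not analysed here. Wilson intervals at 95% and the limit a count of 0 allows (3 counts) cover counting error only.

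The sites, lists and rules were chosen with earlier results of these data known. Named were the 20 highest-scoring sites, the 15 genes with most sites, up to 4 genes per list, a panel of 8 genes, promoter windows by score, sites at the edge of the overlap rule and the densest runs. Some of these items are not reported here. Genes named outside these were chosen after their values were seen.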

Additional observations from a re-analysis of the deposited data

How the results depend on the processing

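No paired analysis was possible because each condition has 1 peak list without replicate numbers, and leaving out a replicate was not possible for the same reason. The 3120 inhibitor-only sites became 3059, 2877 and 2741 with peaks widened by 100, 500 and 1000 bp, and 3162 when a peak with under 50% of its length in other lists counted. They numbered 805 and 198 with inhibitor scores of at least 75 and 100, 2127 and 1532 with those scores in every list, and 444 among equal numbers of top peaks. Leaving Mut +Dox out of the rule gave 5541, and leaving out 1 of the other lists gave 3183 to 3667. The share inside genes was 54.1% for any overlap and 47.6% for scores of at least 75. The share near gene ends was 14.5% within 2 kb, 11.8% for any overlap and 11.2% for scores of at least 75. The share near starts was 14.0% within 2 kb and 12.6% for scores of at least 75. The share near a site of another list was 6.83%, 36.8% and 75.4% within 1, 10 and 50 kb. Genes with a site numbered 2119 within 10 kb, 6531 within 100 kb, 2357 by nearest gene and 1337 for scores of at least 75. For listed genes, 126 became 71 within 10 kb, 109 by nearest gene and 49 for scores of at least 75. Of 79 named genes, 31 had no such site at scores of at least 75, 26 within 10 kb, 21 by nearest gene and 3 with peaks widened by 500 bp. C/EBP letters were in 16.4% to 20.4% of windows under the 3 alternatives, which, like those for starts, were chosen after seeing the data. The motif windows planned for whole peaks were not run, since no genome sequence was used. Depth is unknown, so a site absent from a list was not called there and may still be bound.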

Other observations

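The other densest run lay on chromosome 19, with 5 inhibitor-only sites in 99926 bp of a gene-rich stretch. They were nearest Mrpl11, a mitochondrial ribosomal protein gene (4961552 to 4962378, score 101.44), Npas4, an activity-regulated transcription factor gene (4992672 to 4993302, 52.26), Slc29a2, a nucleoside transporter gene (5016626 to 5017423, 53.65), B4gat1 (5037549 to 5038635, 73.43) and Rin1 (5060675 to 5061477, 56.19). The inhibitor list had 6 sites in this stretch, WT −Dox 2, WT +Dox and Mut +Dox 1 each and Mut −Dox 0.

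MicroRNA hairpins lay inside 4 inhibitor-only sites, out of 14 hairpins in all sites of the inhibitor list and 1005 in the RefSeq table. Inhibitor-only sites were 17.1% of all sites of that list. The 4 hairpins are Mir199a-1 in Dnm2, Mir7687 in Gse1, Mir2137 in Zfp185 and Gm51273 in Nbea. Mir199a-1, whose products are abundant in fibroblasts, lies at chr9:21496495-21496564 (GRCm38.p6, minus strand), within the site at 21496484 to 21497345 scored 83.04. Its mature products are shown because they are the best known of the 4, with the seed (bases 2 to 8) in capitals.
mmu-miR-199a-5p: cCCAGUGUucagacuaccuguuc
mmu-miR-199a-3p: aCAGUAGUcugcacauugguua
A hairpin inside a site is a position only, and no microRNA level was measured. These 4 were looked for after the sites' values were seen.

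Among the genes named per list, 4 had an inhibitor-only site and no site of any other list within 50 kb. They were Gadd45g, Ly6a (a surface marker of mesenchymal precursors, score 61.93), Syn1 (a synaptic vesicle gene, 80.54) and Apob (the apolipoprotein B gene, 52.86). The genes were named for having the most inhibitor-only sites of their list. How many of all genes are of this kind was not counted. Over all inhibitor-only sites, 75.4% had a site of another list within 50 kb of the site, and the rest had no site of another list at that distance. Another inhibitor-only site lay within 50 kb of 25.8% of all inhibitor-only sites.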
